A study of Mus musculus with 6 samples.

Results

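The libraries that held a CD201+CD48- gate were set against those that did not, in single blood-forming cells sorted from C57BL/6 mice aged 8 to 10 weeks. The side with the gate had 2 libraries. The HSC1 library mixed CD201+CD48-HSC1 with CD48+HSC1 cells (84 cells), and the HPC1 library mixed CD201+CD48-HPC1 with CD48+HPC1 cells (82 cells). The side without it also had 2 libraries. The double-negative library mixed CD201-CD48-HSC1 with CD201-CD48-HPC1 cells (76 cells), and the MPP2-containing library mixed CD48+HSC1 and CD48+HPC1 cells with MPP2 and with CD201-CD48-HPC1 (80 cells). HSC and HPC stand for haematopoietic stem and progenitor cells and MPP for multipotent progenitors. Together these 4 libraries held 322 of the 497 cells of the series, 166 with and 156 without the gate. The members of the comparison are the genes whose mean in both libraries with the gate lay above, or below, the means of both libraries without it.

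Several features limit what the sides can show. The labels give spleen for the HSC1 and HPC1 libraries and bone marrow for the others, whereas only bone marrow stands in the title of the series. Tissue and gate therefore split the libraries the same way and cannot be told apart. A library holds a mixture of gates, no cell carries the name of its gate, and CD48+ populations of HSC1 and HPC1 stand on both sides. The 2 libraries of a side hold different populations, so the spread within a side is that between populations, and no label says which libraries came from separate animals.

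CD201 is the endothelial protein C receptor, encoded by Procr. On endothelium it presents protein C for activation, and on blood progenitors it is a surface marker by which long-term repopulating stem cells are enriched. CD48, encoded by Cd48, is a member of the SLAM family of lymphocyte receptors that is low on stem cells and gained as cells commit to lineages. The combination of CD201 with absence of CD48 is used to enrich stem cells by sorting.

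The cells were processed by a modified Smart-seq2 protocol, which copies the RNA of 1 sorted cell, with enrichment of 3' ends. The deposited values are scores: the values of a gene average 0 with an SD of 1 across the 497 cells. A mean score of 0.5 for a library thus lies 0.5 SD of single cells above the mean of the series, and scores give no level. Levels were taken from counts recovered from the scores, for 13074 of 13278 genes, as pooled counts per 1000000 counts of a library (CPM). Differences in level are on the log2(CPM + 10) scale, which understates those of low genes. The median total count per cell was 63092 (HSC1 library) and 112832 (HPC1 library) with the gate, and 105225 (double-negative library) and 145496 (MPP2-containing library) without it. Shares of cells were taken after each cell was thinned to 10000 counts, which left out between 0 and 4 cells of these 4 libraries. Intervals are exact at 95% (Poisson for CPM, Clopper-Pearson for shares) and cover counting error only, and amplified reads need not be independent molecules. Kit, Ptprc, Ly6a, Cd34, Mecom and Hlf, markers of the stem and progenitor compartment, were counted in every one of the 4 libraries.

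The genes of the sorted proteins were examined before the others. Procr stood at 133 CPM (125 to 142) in the HSC1 library and 71.6 (66.8 to 76.7) in the HPC1 library, against 23.9 (20.9 to 27.1) in the double-negative and 16.4 (14.4 to 18.6) in the MPP2-containing library. Both libraries with the gate thus lay above both without it, with a log2 difference of 1.86. An exact two-sided permutation test over the 4 libraries gave p = 0.333, which is the smallest p that 2 against 2 allow. After thinning, Procr was counted in 38.8% of HSC1-library cells (28.1 to 50.3%) and 34.6% of HPC1-library cells (24.3 to 46.0%), against 21.3% (12.7 to 32.3%) and 10.0% (4.4 to 18.8%) without the gate. Procr lies on the plus strand of chromosome 2 at 155751117 to 155755471 (GRCm38) and is protein-coding.

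Cd48 did not follow the sides. It stood at 81.4 CPM in the HSC1 library and 33.9 in the HPC1 library, against 1.62 in the double-negative and 122 in the MPP2-containing library, so the lowest and the highest library were both without the gate (exact permutation p = 1.0). This order goes with the labels, since the double-negative library alone holds no CD48+ population. Among other surface markers, Ly6a, the gene of Sca-1, stood at 450 and 191 CPM with the gate and 204 and 90.5 without it. Its scores did not overlap (0.27 and -0.06 against -0.19 and -0.37), whereas its pooled levels did. Cd34, high in cells leaving the most primitive state, had mean scores of -0.53 and -0.67 with the gate and -0.31 and 0.09 without it, while its pooled levels overlapped (217 and 83.4 against 151 and 226 CPM). Ptprc, the gene of the pan-leukocyte protein CD45, was lower with the gate in both measures, at 134 and 121 CPM against 180.1 and 143. Slamf1, Kit, Flt3 and Itga2b, which encode CD150, the stem cell factor receptor, the FLT3 receptor and CD41, overlapped between the sides.

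The sides were then compared over all genes. limma on the library means of the scores called 0 of 13278 genes (0%) at a Benjamini-Hochberg adjusted p below 0.05. The smallest adjusted p was 0.566, and 568 genes (4.28%) had an unadjusted p below 0.05, of which 276 (2.08%) were higher and 292 (2.2%) lower with the gate. The same tool under 15 other settings also called 0 genes. No gene below is therefore reported as changed, and the values describe these 4 libraries. Mean scores did not overlap between the sides in 1979 genes higher with the gate (14.9% of genes) and in 2299 lower with it (17.3%). Of the 13074 genes with recovered counts, 1184 were higher (9.06%) and 1238 lower (9.47%) in both scores and pooled levels. These shares are the background against which every count below is read.

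The gap of a gene is the distance between the 2 nearest libraries of opposite sides on the log2(CPM + 10) scale. It reached at least 1 in 8 of the 1184 genes higher with the gate and in 0 of the 1238 lower with it. The 12 widest gaps in each direction were taken among genes counted in at least 25% of the cells of 1 library, of which 604 were higher and 856 lower. Cells were not thinned for this limit, so the depth of the libraries bears on these numbers. The number of all genes that pass it is not given here, so 604 and 856 are no shares and are not compared. The last genes among the 12 were Iars2 (gap 0.81) and Gpatch11 (-0.69), and the next outside them were Trpc6 (0.81) and Cep72 (-0.69).

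Sult1a1, which encodes a sulfotransferase of small phenols, had the widest gap. It stood at 142 CPM (133 to 152) in the HSC1 and 169 (161 to 176) in the HPC1 library, against 35.2 (31.6 to 39.1) in the double-negative and 20.8 (18.6 to 23.3) in the MPP2-containing library. The gap was 1.75 and the log2 difference 2.14. Its mean scores were 0.49 and 0.73 against -0.16 and -0.25, a difference of 0.82 (SE 0.12), which gave the smallest limma p of all genes (4.26e-05, adjusted p = 0.566). It was counted in 41.2% and 42.0% of thinned cells with the gate and in 10.7% and 7.5% without it. No single cell held over 37.4% of its counts in any of the 4 libraries. The gene lies on the minus strand of chromosome 7 at 126672865 to 126676432 (GRCm38).

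Smtnl1, a smoothelin-like protein known from muscle contraction, had next to no counts without the gate. It stood at 29.9 CPM in the HSC1 and 22.7 in the HPC1 library. In the MPP2-containing library it had 2 counts (0.133 CPM, 0.0161 to 0.481) and in the double-negative library 0 counts, where the floor of 3 counts is 0.303 CPM and the exact upper limit 0.373. Its counts came from 17 of 84 cells of the HSC1 and 25 of 82 cells of the HPC1 library. Smtnl1 lies on the minus strand of chromosome 2 at 84811176 to 84822652.

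Procr, Sult1a1 and Smtnl1 are shown by the bases that precede their first annotated transcribed base, since Procr encodes the sorted protein and Sult1a1 and Smtnl1 had the widest gaps. They are RefSeq sequences of GRCm38.p6, written 5′ to 3′ on the gene's strand, and capitals mark a match to 1 of the 7 motifs searched, here the AP-1 motif in Procr. The other 2 matches of Procr, ETS and E-box, lie past the printed stretch, and those of Sult1a1 and Smtnl1 hold no match.
Procr, chr2:155750967-155751116, plus strand: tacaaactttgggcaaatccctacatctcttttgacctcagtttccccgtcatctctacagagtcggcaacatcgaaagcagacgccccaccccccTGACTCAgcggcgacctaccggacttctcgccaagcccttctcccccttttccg
Sult1a1, chr7:126676433-126676668, minus strand: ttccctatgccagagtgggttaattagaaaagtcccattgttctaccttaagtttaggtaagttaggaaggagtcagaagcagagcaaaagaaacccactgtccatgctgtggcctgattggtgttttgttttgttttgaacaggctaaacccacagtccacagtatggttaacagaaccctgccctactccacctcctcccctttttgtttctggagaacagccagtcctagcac
Smtnl1, chr2:84822653-84822902, minus strand: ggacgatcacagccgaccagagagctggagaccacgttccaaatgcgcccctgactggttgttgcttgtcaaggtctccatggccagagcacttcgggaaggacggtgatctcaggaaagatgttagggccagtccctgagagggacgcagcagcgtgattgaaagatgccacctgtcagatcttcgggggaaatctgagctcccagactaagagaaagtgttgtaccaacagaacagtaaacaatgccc

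The motifs were searched on both strands of the 250 bases before each RefSeq start, and a match is a description of the letters, not a site. Only the 12 widest gaps in each direction were read. A gene with several starts counts if any of them matches, whereas the shares of all promoters are per promoter (32851 promoters of 27025 genes). The AP-1 motif TGACTCA matched in 1 of 10 genes higher with the gate (Procr) and in 0 of 12 lower with it, against 4.46% of promoters. The ETS motif CGGAAG matched in 3 of 10 genes higher with the gate (Efna1, Nicn1 and Procr) and in 4 of 12 lower with it (Cdkn3, Ncbp1, Tec and Tpp2), against 13.6% of all promoters. The GATA motif AGATAA matched in 0 of 10 and 1 of 12, against 9.99%. The RUNX motif TGTGGT and a core interferon element matched in 0 of 10 and 0 of 12, against 14% and 2.98% of all promoters. The E-box CAGCTG (13%) matched in Procr and Vldlr, and TATAAA (12.4%) in Hbb-bt, Nicn1 and Ranbp2.

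Of the other genes higher with the gate, Tinagl1 and Efna1 act outside the cell or at its surface. Tinagl1, a secreted matricellular protein, stood at 59.0 and 43.0 CPM in the HSC1 and HPC1 libraries and at 5.06 and 11.7 in the double-negative and MPP2-containing libraries. It was counted in 28.8% and 29.6% of thinned cells with the gate, against 9.3% and 7.5%. Efna1 encodes ephrin-A1, a membrane-anchored ligand of Eph receptors. It stood at 21.3 and 20.9 CPM against 0.91 and 1.93, although a single cell held 42.1% of its counts in the HPC1 library and 88.9% and 93.1% in the libraries without the gate.

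Xdh encodes xanthine dehydrogenase, the last enzyme of purine breakdown to uric acid. It stood at 50.7 CPM in the HSC1 and 19.4 in the HPC1 library, against 0.202 and 1.20 without the gate. A single HSC1-library cell held 55.9% of its counts there, and without that cell the level was 22.7 CPM. Pde6h, a phosphodiesterase subunit known from cone photoreceptors, stood at 25.1 and 12.3 CPM against 0.101 and 1.27. Its score difference of 0.48 was 0.24 without the HSC1 library.

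Lmo1, a LIM-domain transcription cofactor, stood at 15.3 and 20.4 CPM with the gate and 3.04 and 2.13 without it. Smim19, a small membrane protein, stood at 34.8 and 28.2 against 7.59 and 10.7. Nicn1, nicolin, stood at 23.4 and 20.7 against 6.98 and 6.53. Iars2, the mitochondrial isoleucyl-tRNA synthetase, stood at 42.8 and 38.5 against 17.6 and 14.1. The gap, by which these 4 genes were chosen, was over 0.81 log2 units in each. A single cell held 48.0% of the Iars2 counts in the HPC1 library, where its level without that cell was 20.8 CPM. With per-cell CPM the Iars2 log2 difference of 0.973 was 0.386. In the double-negative library 1 cell held 70.0% of the Lmo1 counts and 1 cell 68.1% of the Nicn1 counts.

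**Figure D1:**
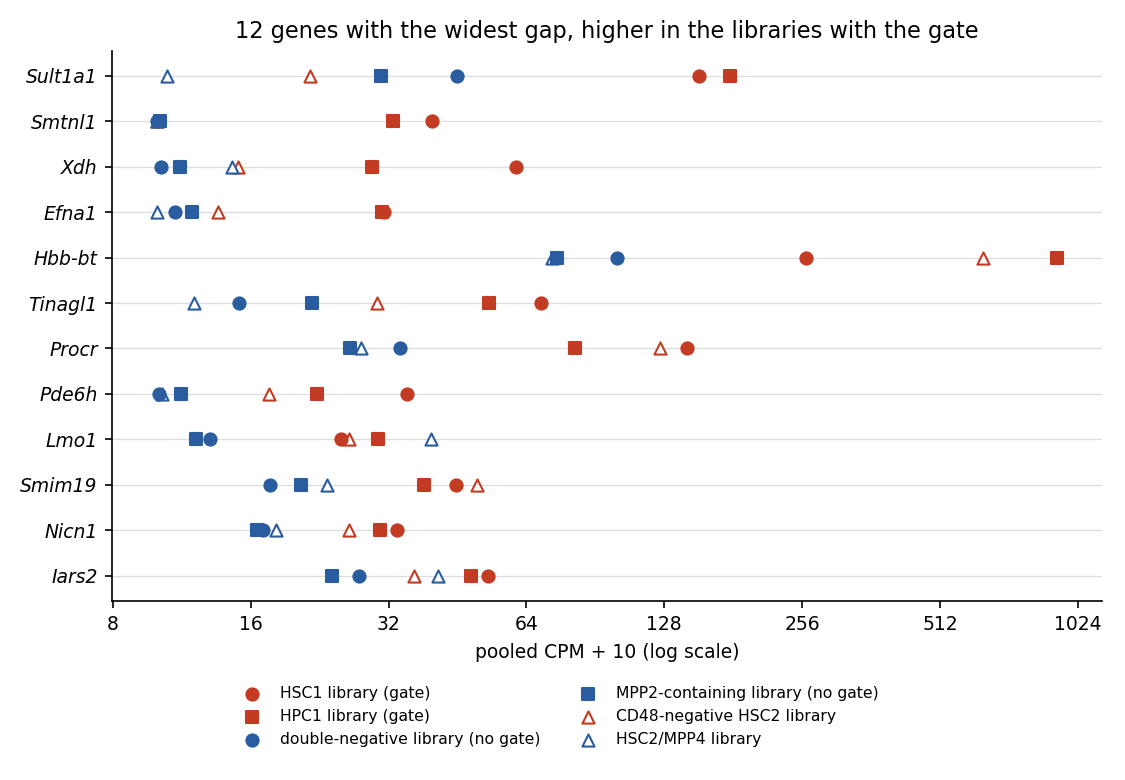
Pooled CPM + 10 on a log scale for the 12 genes with the widest gap, higher with the gate. Each point is 1 library (filled, the 4 libraries compared; open triangles, the CD48-negative HSC2 and HSC2/MPP4 libraries, which the choice of genes did not use); red points of the 4 lie to the right of blue points in every row, and Sult1a1 has the widest gap (1.75).

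Hbb-bt, an adult beta-globin, was the erythroid gene among these 12. It stood at 251 CPM in the HSC1 and 912 in the HPC1 library, against 90.8 and 64.6 without the gate. A single HPC1-library cell held 68.2% of its counts, and without each library's highest cell the levels were 208 and 296 against 55.5 and 47.1. Its score difference of 0.86 was 0.46 without the HPC1 library. The globin copies are near identical, so reads may have been split between Hbb-bt and Hbb-bs and between Hba-a1 and Hba-a2. Hbb-bs (210 and 1557 against 138 and 95.9 CPM), Hba-a1 (142 and 1156 against 75.6 and 76.9) and Hba-a2 (75.0 and 835 against 46.9 and 47.9) had the same order of sides. Every globin gene was highest in the HPC1 library. There 1 cell held 56.9% of the counts of Hbb-bs, 63.8% of Hba-a1 and 75.1% of Hba-a2. Hbb-bt, Hbb-bs and Hba-a1 were nonetheless counted in most cells of that library. After thinning, Hbb-bt was counted in 91.4% of HPC1-library cells, against 42.5% (HSC1), 25.3% (double-negative) and 28.8% (MPP2-containing library). Hba-a1 was counted in 96.4% of HPC1-library cells with a Procr count and 94.3% of its other cells. These shares were 35.5% and 40.8% (HSC1), 43.8% and 35.6% (double-negative), and 37.5% and 36.1% (MPP2-containing library).

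The genes lower with the gate had smaller gaps and were more widely counted. Tpp2, a peptidase that acts after the proteasome, had the widest, at 33.4 CPM (29.1 to 38.2) in the HSC1 and 28.3 (25.3 to 31.6) in the HPC1 library, against 74.3 (69.0 to 79.8) in the double-negative and 85.2 (80.6 to 90.0) in the MPP2-containing library. The log2 difference was -1.13, and no cell held over 13.8% of its counts in any of these libraries. Tpp2 lies on the plus strand of chromosome 1 at 43933647 to 44003000.

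Several of the 12 act in the nucleus. Ncbp1, a subunit of the nuclear cap-binding complex, stood at 37.1 and 33.9 CPM with the gate and 90.2 and 74.1 without it. Ranbp2, a nuclear pore protein, stood at 24.2 and 27.8 against 51.3 and 58.2. Actl6a, an actin-like subunit of chromatin remodelling complexes, stood at 22.03 and 29.1 against 60.6 and 58.2. The gap, by which these 3 genes were chosen, was wider than 0.69 log2 units in each, with the gate below.

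Rad52, a recombination repair protein, stood at 14.0 and 14.7 CPM against 33.0 and 32.2. Cdkn3, a phosphatase of cyclin-dependent kinases that peaks in dividing cells, stood at 21.3 and 34.3 against 66.8 and 67.5. Single cells weighed on Cdkn3: the highest cell held 74.6% of its counts in the HSC1 and 54.1% in the double-negative library. Zfp280b, a zinc finger protein, stood at 1.23 and 0.697 CPM against 10.2 and 13.4.

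Of the signalling genes, Tec, a tyrosine kinase of blood cells, stood at 14.6 and 13.9 CPM with the gate and 29.9 and 37.6 without it. Map3k3, a kinase that feeds MAP kinase cascades, stood at 7.70 and 7.76 against 19.6 and 20.6. Vldlr, a lipoprotein receptor, stood at 8.63 and 7.84 against 23.5 and 25.6, and its score difference of -0.24 was -0.13 without the MPP2-containing library. Strbp, an RNA-binding protein, stood at 61.8 and 57.5 against 112 and 114, but its mean scores nearly touched (score gap -0.01), and its score difference of -0.11 was -0.01 without the HPC1 library. Gpatch11, a G-patch protein, stood at 36.7 and 37.3 against 67.8 and 66.3.

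**Figure D2:**
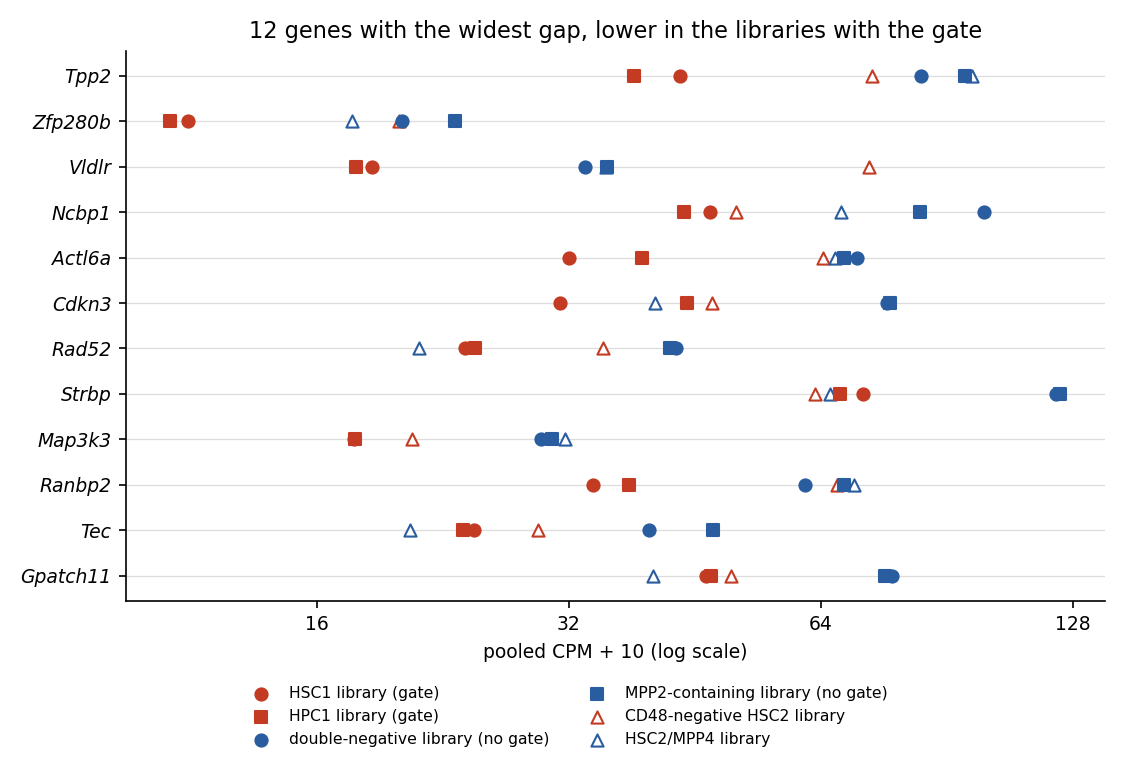
Pooled CPM + 10 on a log scale for the 12 genes with the widest gap, lower with the gate, drawn as in the plot of the higher genes. Filled red points lie to the left of filled blue points in every row, with gaps between -0.69 (Gpatch11) and -0.96 (Tpp2), while the open triangles of the 2 later libraries fall on either side.

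Genes without recovered counts are mostly abundant ones, and only their scores could be compared. The 5 widest score gaps lower with the gate were those of Ncl (gap -0.32), Eef1a1 (-0.30), Cd47 (-0.29), Actb (-0.28) and Coro1a (-0.26). They encode nucleolin, a translation elongation factor, a surface protein that restrains phagocytosis, beta-actin and an actin-binding protein of leukocytes. Eef1a1 had the largest difference of the 5, with mean scores of -0.24 and -0.48 with the gate and 0.18 and 0.05 without it (difference -0.48, SE 0.12). The 5 widest gaps higher with the gate were narrower, from 0.20 (Ptpn18) and 0.19 (Ly6e) to 0.13 (Cox4i1) and 0.12 (Cox8a and Son). Ptpn18 is a protein tyrosine phosphatase, Ly6e a GPI-anchored protein of the family of Sca-1, and Cox4i1 and Cox8a are subunits of cytochrome c oxidase.

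Because the gates could not be traced, detection of the higher genes was read beside Procr in single cells. This was chosen after the values were seen and has no test. In the HSC1 library 28 of 80 thinned cells had a count of Procr and none of Cd48, 20 had Cd48 alone, 3 had both and 29 had neither. In the HPC1 library the numbers were 26, 11, 2 and 42 of 81. The double-negative library had 16 of 75 cells with Procr alone and 2 with Cd48 alone, and the MPP2-containing library 5 and 41 of 80.

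Sult1a1 was counted in 58.1% of Procr cells and 30.6% of the other cells of the HSC1 library (18 of 31 and 15 of 49), and in 71.4% and 26.4% in the HPC1 library (20 of 28 and 14 of 53). Tinagl1 was counted in 51.6% and 14.3% in the HSC1 library and in 53.6% and 17.0% in the HPC1 library. Efna1 was counted in 19.4% and 4.1%, and in 21.4% and 3.8%. Xdh was counted in 32.3% and 8.2%, and in 14.3% and 5.7% (4 of 28 and 3 of 53 cells of the HPC1 library). Within both libraries with the gate these genes were thus more often counted in cells with a Procr count. Smtnl1 (16.1% and 10.2%, then 32.1% and 7.5%) and Pde6h (32.3% and 6.1%, then 10.7% and 3.8%) had the same order. In the HPC1 library Pde6h was counted in only 3 of 28 and 2 of 53 cells. For comparison, the median difference over genes counted in at least 10% of thinned cells was -0.8 percentage points in the HSC1 library (6887 genes) and -2.5 in the HPC1 library (6699 genes). In the HPC1 library Efna1 (9.9%), Xdh (8.6%) and Pde6h (6.2%) fell below this limit, so its median leaves them out. A median gives no spread over genes.

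Hbb-bt was counted in 48.4% of Procr cells and 38.8% of others in the HSC1 library and in 92.9% and 90.6% in the HPC1 library. Lmo1 was counted in 19.4% and 2.0% in the HSC1 but in 3.6% and 13.2% in the HPC1 library. In the double-negative library Sult1a1 was counted in 18.8% of the 16 cells with a Procr count and in 8.5% of the others, and Smtnl1, Xdh, Efna1 and Pde6h in 0.0% of the 16. In the MPP2-containing library Sult1a1 was counted in 37.5% of 8 such cells and 4.2% of the others and Pde6h in 12.5% and 0.0%, and Smtnl1, Xdh and Efna1 in 0.0% of the 8. Depth also differed: cells with a Procr count had a median total of 61915 counts against 72745 for the others in the HSC1 library, and 87121 against 135455 in the HPC1 library. The part of depth in these shares was not tested.

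**Figure D3:**
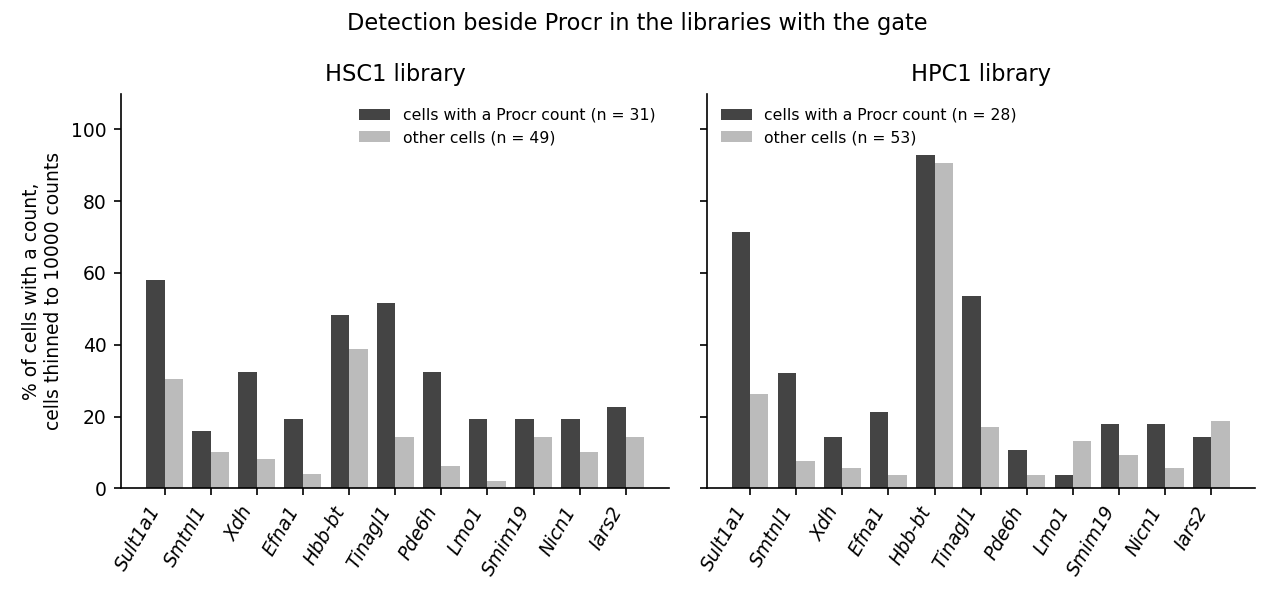
Share of thinned cells with a count of each gene (y axis, %) among cells with a Procr count (dark bars) and other cells (light bars) of the HSC1 library (left) and HPC1 library (right). Dark bars exceed light bars for Sult1a1, Tinagl1, Efna1 and Xdh in both libraries; for Lmo1 and Iars2 the order turns in the HPC1 library.

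Gene lists were then read against the background shares of 14.9% higher and 17.3% lower. Lists and members were chosen with earlier results of these data known, so their shares are descriptions and no independent support. The stem cell list also holds Sult1a1, the gene with the widest gap. Of 28 stem cell genes measured, 11 had scores higher with the gate, 0 lower and 17 overlapping. The list had a median score difference of 0.187 against -0.010 over all genes, and a median log2 difference of 0.43 against 0.00. In both scores and levels, 5 were higher: Sult1a1, Fgd5, Robo4, Tgm2 and Cdkn1c. Robo4, a guidance receptor that takes part in stem cell retention, stood at 21.1 and 18.2 CPM against 12.2 and 1.33. Fgd5, whose promoter marks stem cells in reporter mice, stood at 12.2 and 21.0 against 8.497 and 1.13. Tgm2, a transglutaminase, stood at 43.5 and 32.3 against 20.9 and 16.4, and Cdkn1c, the inhibitor p57 of stem cell division, at 12.8 and 14.6 against 10.5 and 5.06. Mllt3, a regulator of stem cell maintenance, had scores of 0.56 and 0.28 against 0.16 and -0.32. Mllt3, Hoxb5, Ly6a and Apoe were higher by score and overlapped by pooled level, and Ifitm1 has no recovered counts. Tek was higher by score and lower by level (15.4 and 15.1 against 17.9 and 16.7 CPM).

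The MPP2-containing library had the lowest score in 10 of these 11 genes, Tek being the exception. Without it the median score difference of the stem cell list was 0.105, and without the double-negative library it was 0.306. Mecom and Hlf, transcription factors that define stem cells, overlapped between the sides. Mecom stood at 134 and 86.2 CPM with the gate and 142 and 46.1 without it, and Hlf at 270 and 132 against 170 and 79.9. Taken over cells by their median rather than their mean, the list's difference was 0.018.

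**Figure D4:**
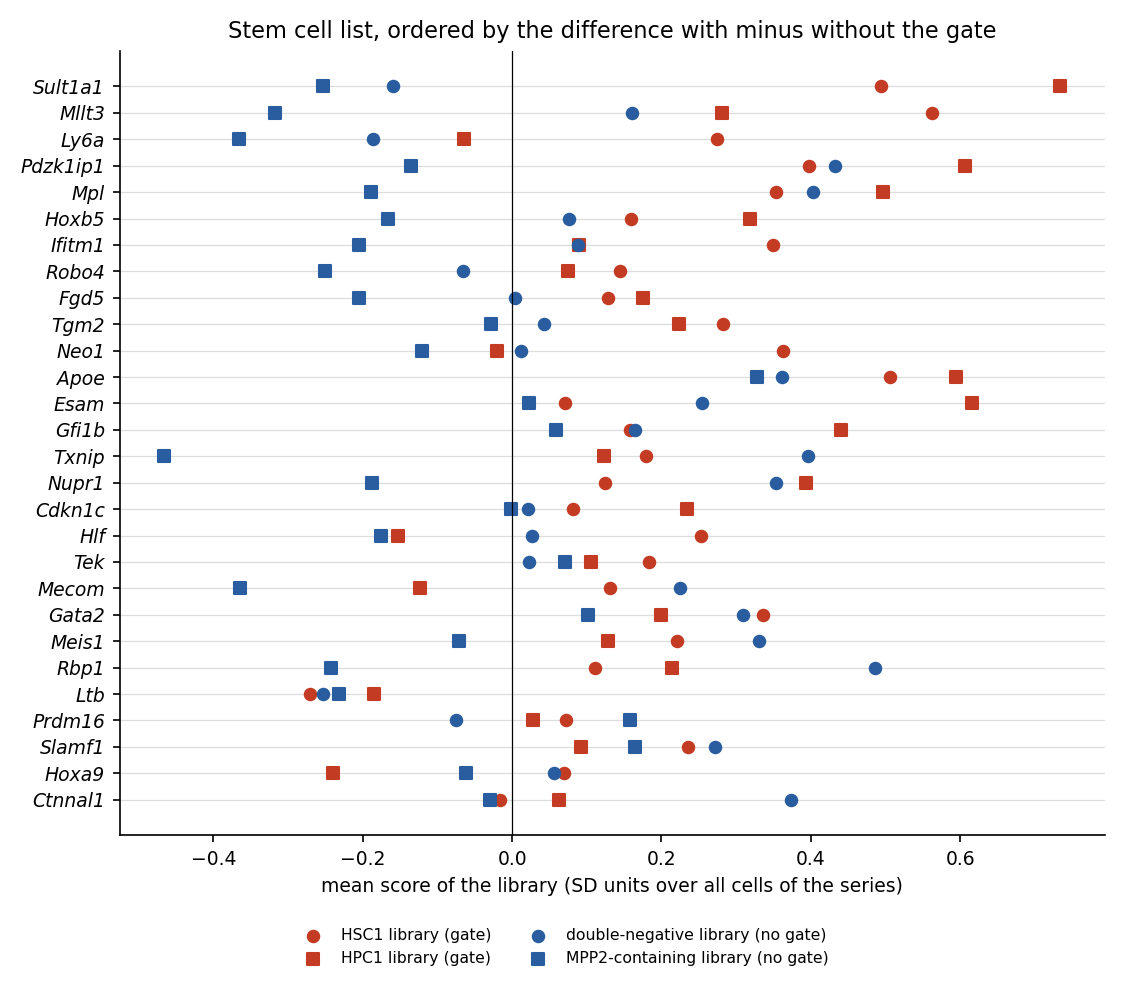
Mean score of each of the 4 libraries (x axis, SD units over all 497 cells) for the 28 measured genes of the stem cell list, ordered by the difference between the sides. Red points (gate) lie right of blue points (no gate) in 11 genes, led by Sult1a1, and the MPP2-containing library (blue squares) is often the lowest.

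Interferon-response genes had 10 of 28 members higher by score with the gate, 2 lower and 16 overlapping. In both measures 5 were higher and 0 lower. Among them were Igtp (118 and 70.6 CPM against 38.4 and 52.1) and Iigp1 (71.8 and 44.3 against 31.1 and 28.5), both interferon-inducible GTPases, Zbp1 (28.5 and 24.4 against 15.7 and 18.3), a sensor of nucleic acids, and Rsad2 (36.7 and 30.7 against 28.1 and 24.4), an antiviral enzyme. Irf9 and Ifi27 had the opposite order of scores. The list's median score difference was 0.066. It was 0.131 without the double-negative, 0.105 without the HSC1, 0.094 without the HPC1 and 0.056 without the MPP2-containing library. With the median over cells it was -0.003.

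Genes of antigen presentation had 7 of 18 members higher by score, 3 lower and 8 overlapping. H2-Aa, an MHC class II chain, stood at 159 and 81.6 CPM with the gate and 50.2 and 49.3 without it. Ciita, the activator of class II genes, stood at 2.47 and 3.75 against 0.607 and 0.732. Cd74, the class II chaperone, was higher by score only (83.7 and 67.3 against 7.99 and 68.2 CPM). Tap1, Tap2 and H2-DMa had lower scores with the gate.

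The erythroid list had 6 of 20 members higher by score, 1 lower and 13 overlapping. The 4 globin genes made up most of the 6. The others were Alas2, which makes haem in red cells, and Slc4a1, the anion exchanger band 3. Their counts in the HPC1 library came mostly from 1 cell (95.1% and 84.0%). Transcription factors of the lineage did not separate the sides: Gata1 and Klf1 overlapped. Cpox, a haem enzyme, stood at 3.54 and 14.5 CPM with the gate and 15.8 and 19.2 without it. The list's median score difference was -0.009, and its sign turned without the HSC1 library (0.102) and without the MPP2-containing library (0.084).

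Megakaryocyte-platelet genes had 3 of 24 members higher by score (12.5%), 1 lower (4.17%) and 20 overlapping. Both shares were below those over all genes. Vwf, von Willebrand factor, stood at 21.6 and 64.3 CPM with the gate and 11.1 and 15.0 without it, and Clec1b, a platelet receptor, at 7.40 and 10.7 against 1.62 and 2.26. The summed level of the list ran from 988 CPM in the HSC1 to 5107 in the HPC1 library, with 1720 and 2258 without the gate, so the libraries with the gate were its lowest and its highest.

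Cell-cycle genes were examined by phase. Of 22 G2/M genes 0 had scores higher with the gate, 1 lower (Cdc20) and 21 overlapping, with a median score difference of -0.171. In these 4 libraries 0 of the 22 had a positive score difference, and the median log2 difference was -0.56. Without the MPP2-containing library the median score difference was 0.14, so its sign turned, and without the double-negative library it was -0.481. Ccnb1, cyclin B1, stood at 41.0 and 67.2 CPM against 94.5 and 142, with mean scores of -0.15 and -0.06 against -0.15 and 0.41. Of 24 S-phase genes 1 was higher and 1 lower.

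Among 17 cell-cycle inhibitors and brakes, 5 had scores higher with the gate and 2 lower, and the 5 were also higher by level. Foxo1, a transcription factor of quiescence, stood at 11.4 and 16.0 CPM against 8.497 and 1.997. Gadd45g, a stress-induced growth arrest gene, stood at 23.1 and 19.1 against 10.9 and 16.8. Of the 5, Ccnd1 (26.5 and 29.1 against 21.2 and 9.26) and Ccnd3 (95.2 and 102 against 85.4 and 59.9) are D-type cyclins, which promote division. Btg1, an antiproliferative gene, had the opposite order at 31.0 and 21.4 against 55.8 and 34.8.

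Immediate early genes, the first to answer a stimulus or the handling of cells, had 0 of 20 members higher, 2 lower (10%) and 18 overlapping. Jun stood at 326 and 264 CPM with the gate and 544 and 514 without it, and Dusp1, a MAP kinase phosphatase, at 127 and 118 against 192 and 352. The list's median score difference was -0.14. It was 0.001 without the MPP2-containing library and -0.296 without the double-negative library.

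Respiratory chain genes had 8 of 28 members lower by score and 3 higher, and in both measures 5 lower and 0 higher. Uqcrc2, a complex III subunit, stood at 68.0 and 70.1 CPM with the gate and 104 and 104 without it, and Ndufv1, of complex I, at 132 and 140 against 155 and 185. The median score difference of this list was -0.066. It was 0.077 without the MPP2-containing, -0.163 without the double-negative, -0.119 without the HPC1 and -0.018 without the HSC1 library. Hypoxia and glycolysis genes had 8 of 26 lower and 3 higher, although their median score difference was 0.007 and their median log2 difference -0.03. Pgk1, phosphoglycerate kinase, stood at 53.8 and 46.0 CPM against 69.6 and 72.2, and Hk2, hexokinase 2, at 122 and 156 against 163 and 239. Ndrg1, a hypoxia-responsive gene, stood at 42.2 and 61.6 against 72.8 and 71.3, while Vegfa had the opposite order at 4.31 and 5.05 against 1.82 and 1.53. Antioxidant genes were split, with 4 of 25 higher (16%) and 5 lower (20%), near the shares over all genes. In both measures 3 were higher and 3 lower. Gstm1, a glutathione transferase, stood at 298 and 190 CPM against 140 and 116, and Gsr, glutathione reductase, at 48.2 and 56.1 against 25.4 and 28.4.

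Lymphoid progenitor genes had 5 of 16 members lower by score with the gate and 1 higher. Il12a stood at 67.0 and 69.5 CPM against 103 and 81.7, and Cd27, a receptor gained by multipotent progenitors, had scores of -0.12 and -0.42 against 0.04 and 0.12. Granulocyte-monocyte progenitor genes had 1 of 20 higher and 2 lower.

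Genes of homing and retention had 3 of 30 members higher (10%) and 4 lower (13.3%), both below the shares over all genes. Besides Robo4, Jam3, a junctional adhesion molecule, stood at 17.3 and 12.6 CPM with the gate and 9.31 and 0.40 without it, and Ptger4, a prostaglandin E receptor, at 27.0 and 14.8 against 6.17 and 10.5. Selplg, the ligand of P-selectin, had the opposite order at 133 and 72.5 against 144 and 151. Cxcr4, the chemokine receptor that holds stem cells in the marrow, overlapped. Of the protein C and coagulation list, 2 of 13 were higher (15.4%, Procr and Serpine2) and 1 lower (7.69%). The lower one was Plaur, the urokinase receptor, at 3.08 and 4.53 CPM against 11.9 and 22.8. In the TGF-beta list 3 of 18 were higher (16.7%) and 2 lower (11.1%), with a median score difference of -0.008. Smad3, a transducer of TGF-beta signals, stood at 22.7 and 26.0 CPM against 3.84 and 13.5.

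Markers of other cells that spleen or marrow could bring were summed by library. Splenic and tissue macrophage genes (15 recovered) summed to 106 and 155 CPM with the gate and 92.1 and 180.2 without it, with 1 member higher by score and 0 lower. Mature B, T and NK cell genes (14 recovered) summed to 334 and 401.2 CPM against 159 and 577, and 8, 6, 8 and 4 of them had no count in the HSC1, HPC1, double-negative and MPP2-containing libraries. Mature neutrophil genes summed to 320.3 CPM in the HSC1 and 4911 in the HPC1 library, against 818 and 2896. Mast cell-basophil genes summed to 207 and 157 CPM against 230.4 and 227, with 2 of 8 members lower by score. Endothelial and stromal genes summed to 132 and 105 against 124 and 79.9. By score 4 of 10 members were lower (40%) and 1 higher (10%, Kdr, a receptor of vascular growth factor). In both measures 3 were lower and 1 higher, and the list's median log2 difference was -0.01. The part of these cells in the gene differences was not tested.

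**Figure D5:**
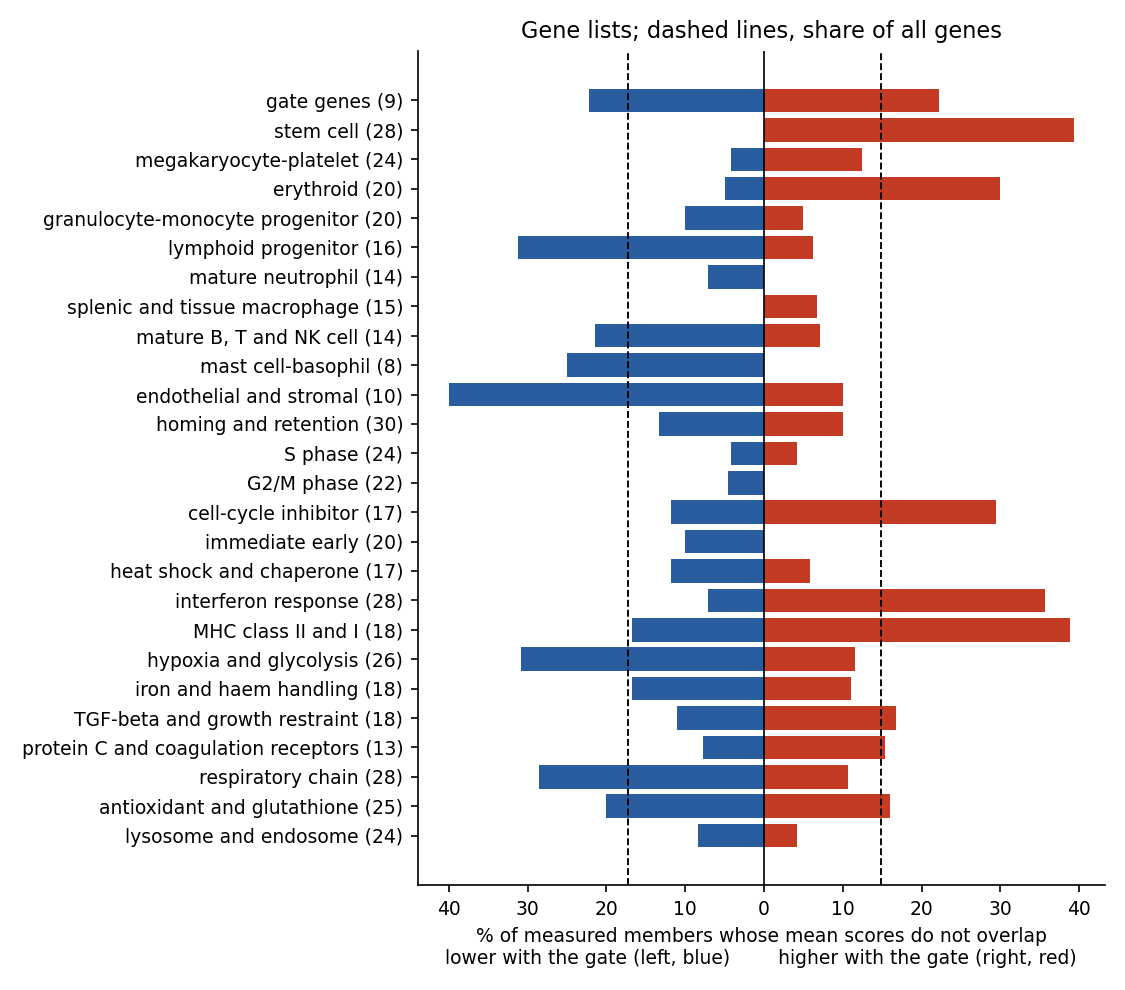
Share of the measured members of each gene list (number in brackets) whose mean scores did not overlap between the sides, higher with the gate to the right and lower to the left. Dashed lines mark the shares over all genes (14.9% and 17.3%). The stem cell list reaches 39.3% on the right and 0% on the left. Lists were chosen with earlier results of these data known.

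The remaining lists had few members apart: lysosome and endosome had 1 of 24 higher and 2 lower, heat shock and chaperone 1 of 17 and 2, and iron and haem handling 2 of 18 and 3. Blvra, a biliverdin reductase of that list, stood at 84.8 and 112 CPM with the gate and 55.2 and 63.6 without it. Of 82 ribosomal protein genes, 12 were higher and 10 lower by score, and of 9 mitochondrially encoded genes 1 and 2.

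A second pair of libraries, which the choice of genes did not use and which shares no control with it, also differs in a CD201+ gate. The CD48-negative HSC2 library (86 cells) mixed CD48-CD201+HSC2 with CD48-CD201-HSC2 cells, and the HSC2/MPP4 library (89 cells) mixed CD48+HSC2 with MPP4 cells. Both are labelled bone marrow, total RNA and 8 weeks. CD48 status and MPP4 differ as well, each side is 1 library, and nothing was tested. Both were deposited in tables apart from the 4 libraries, so their levels are compared within the pair only.

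Procr stood at 115 CPM (103 to 128) in the CD48-negative HSC2 library and 17.8 (13.9 to 22.5) in the HSC2/MPP4 library. Of the 12 genes higher with the gate, 9 were higher in the CD48-negative HSC2 library, 2 lower and 1 without a count in either, with a median log2 difference of 0.65. Of all 13074 recovered genes 51.7% were higher there and 42.9% lower, with a median of 0.02. The 9 include Procr, the gene of the sorted protein, so the CD201+ gate bears on that member directly. Tinagl1 stood at 20.2 CPM (15.2 to 26.2) against 2.04 (0.880 to 4.02), Sult1a1 at 11.5 (7.88 to 16.3) against 0.51 (0.0617 to 1.84), and Hbb-bt at 626 against 62.7. Smtnl1 had 0 counts in both, where the floor of 3 counts is 1.08 and 0.765 CPM and the exact upper limits are 1.33 and 0.94. Xdh stood at 5.04 against 4.59, a difference within counting error, and Lmo1 had the opposite order at 16.2 against 29.6. Of the others among the 9, Efna1 had only 10 counts against 0. A single cell held 76.2% of the 21 counts of Pde6h in the CD48-negative HSC2 library, where its level without that cell was 1.83 CPM.

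The genes lower with the gate had no common order there: 6 of 12 were higher in the CD48-negative HSC2 library and 6 lower, with a median log2 difference of 0.07. Vldlr was the widest exception at 63.0 CPM against 25.5. Tpp2 stood at 63.7 (54.7 to 73.8) against 86.9 (77.9 to 96.6). Over the whole sets, 56.6% of the 1184 genes higher with the gate and 44.9% of the 1238 lower with it were higher in the CD48-negative HSC2 library, on either side of the 51.7% of all genes.

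By list, 23 of 27 recovered stem cell genes were higher in the CD48-negative HSC2 library (median log2 difference 1.11), among them Mllt3 (104 against 20.6 CPM) and Mecom (223 against 64.7). This contrast also separates HSC2 from a library with MPP4. Of 25 recovered interferon-response genes 24 were higher (median 0.62), among them Igtp (75.2 against 31.6 CPM). Of 20 immediate early genes 15 were higher (median 0.48), whereas in the 4 libraries 18 of 20 overlapped by score. Of 23 recovered respiratory chain genes 0 were higher there (median -0.46).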

How the data were processed

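Single sorted cells were measured by a modified Smart-seq2 protocol with 3' enrichment, per the labels' protocols. TopHat, HTSeq and mm10 are named in the submitters' processing notes, with no version, and whether counting used strand is not given in the sources used here. Deposited values are scores, centred and scaled per gene over all 497 cells of 3 tables and capped at 10, as found from the values. They were expected to be a normalized level, so levels were taken from counts instead. These were recovered by undoing the scaling and a regression on 4 covariates, with 10000 counts as scale factor. All 2007755 recovered values up to 50 were whole within 0.01 (100%), for 13074 of 13278 genes. No plane fitted 166 genes and 38 were in too few cells. Between 52.7 and 81.7% of a cell's total fell in recovered genes. There were 6 blank lines, left out, and no column name was shared between tables.

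Total counts ran from 6489907 to 15019501 in the 4 libraries compared, where 3 counts are 0.462 to 0.2 CPM, and were 3924057 and 2778858 in the later libraries. Library means of the scores were tested with limma 3.58.1 in R 4.3.3 (eBayes without trend, two-sided, Benjamini-Hochberg over all genes, threshold 0.05), since cells are not replicates. p-values measure only the spread between these libraries. Fits without 1 library assume that the lone library varies like the others. Recovery and test were checked on simulated counts.

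Named genes did not overlap, in the same direction, in scores and log2(CPM + 10), were detected in 25% or more of the cells in some library, and were no predicted, mitochondrial, ribosomal protein or pseudogene symbol. The 12 widest gaps in each direction were taken, with 5 each among genes with scores only, and members of 26 gene lists. Members and lists were chosen with earlier results of these data known. Joint detection and promoter motifs were added after values were seen and have no test. Alternatives were the pooled level, pseudocounts of 1 and 50 CPM, per-cell CPM, a trend, a detection filter, medians over cells, and leaving out deep cells, highest cells or 1 library. One gene of the lists is not reported here.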

Additional observations from a re-analysis of the deposited data

How the results depend on the processing

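Under limma, 0 genes were called at an adjusted p below 0.05 in every fit that kept all 4 libraries. The smallest adjusted p lay between 0.0901 (with the filter on detection at 10%) and 0.997 (log2 CPM). An unadjusted p below 0.05 was found for 452 of 10717 genes (with the filter) to 697 of 13278 (without each gene's highest cell). Genes that did not overlap numbered 1516 (of 10717, with the filter) to 1993 (of 13074, pooled level, 15.2%) higher over the alternatives. Lower with the gate were 1884 (of 13074, pooled level, 14.4%) to 2573 (of 13278, median over cells). The sets of genes differ, so these counts do not compare directly. For the 34 named genes, the non-overlap by which they were chosen fixes the direction when 1 library is left out and, where counts were recovered, on the log2(CPM + 10) scale, so these alternatives show no stability. The median over cells reversed 5 of these genes: Xdh -0.005, Efna1 -0.01, Pde6h -0.007, Zfp280b 0.002 and Map3k3 0.015. None of the 5 was counted in over 33.8% of the cells of any of the 4 libraries. Most cells thus had no count of them, and their median scores say little about level. Of the list medians, without the HPC1 library the megakaryocyte-platelet median of 0.121 was -0.144, and with the median over cells the interferon response median of 0.066 was -0.003. The cause was not tested. No paired analysis was possible because the labels give the libraries no shared replicate number.

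Depth limits the low genes: counts of 3 or fewer in a library cannot be told from its floor, and single cells held over 50% of the counts of several named genes in 1 library.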
